A study of Mus musculus with 10 samples.

Results

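The unfolded protein and heat shock response was examined through 37 genes in sorted mouse lung endothelial cells, by RNA sequencing. The genes were taken by name from a fixed list of stress-response genes and matched to the 55385 gene identifiers of the expression table. All 37 were found, and all 37 passed the filter on low counts. They were grouped by role into 14 chaperones and folding enzymes of the endoplasmic reticulum (ER), 4 stress sensors and transcription factors, 3 genes of ER-associated degradation, 6 genes of the integrated stress response and 10 cytosolic or mitochondrial heat shock genes. Ddit3 has 2 entries under its symbol. One of them held a total count of 0, so the other was used.

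The samples came from the strain named Cdh5.iCreERT2xTnfsf10Lox/Lox, in which both copies of Tnfsf10 carry loxP sites. Tnfsf10 encodes TRAIL, a ligand of death receptors. All 10 libraries are Tnfsf10 L/L. The 5 controls are Cdh5.Cre W/W, with no Cre, and the 5 libraries labelled EC-TRAIL KO are Cdh5.Cre Tg/W and carry Cre, a recombinase switched on by tamoxifen, under the promoter of the endothelial gene Cdh5. The labels give the same treatment for both groups: mice of 8 to 14 weeks and tamoxifen at 1 mg per day for 5 or 10 days, without saying which library had which length. The design text counts 4 transgenic animals and the labels hold 5 libraries. Since only the labelled knockouts carried Cre, the transgene and the deletion cannot be told apart. Nothing in the labels ties each library to its own mouse, and the p-values therefore reflect only library-to-library spread, which may be technical.

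As background, proteins that enter the ER are folded by chaperones such as BiP, the product of Hspa5. When unfolded proteins build up, the sensors IRE1 (Ern1), PERK (Eif2ak3) and ATF6 start the unfolded protein response. IRE1 splices Xbp1 mRNA, and spliced XBP1 and cleaved ATF6 raise transcription of chaperone and degradation genes. PERK phosphorylates eIF2α, which favours translation of ATF4, and ATF4 then drives the integrated stress response, including Ddit3, Trib3, Chac1 and Asns. In the cytosol the factor HSF1 drives heat shock genes of the Hsp70 and Hsp90 families. The secretory pathway of endothelial cells makes von Willebrand factor, receptors and matrix proteins, which pass through the same folding machinery.

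Short promoter sequences were searched for exact matches to known response elements. They are given here because library-to-library values of the ER chaperones are compared below with and without such a match. RefSeq promoters of build GRCm38.p6, from 250 bases before to 50 bases after each start, covered 30 of the 37 members. 5 elements were searched, each on both strands. The ER stress element ERSE (CCAAT, any 9 bases, CCACG) was present in 0.119% of 32851 promoters and in 7 of the 12 ER chaperones with a promoter. Sequences are written 5′ to 3′ on the gene's strand, with the ERSE match in capitals and its place relative to the start in bases.
Hspa5 (chr2:34772020-34772048, plus strand, capitals at -65 to -47): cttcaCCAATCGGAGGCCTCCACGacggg
Hsp90b1 (chr10:86705618-86705676, minus strand, capitals at -212 to -194): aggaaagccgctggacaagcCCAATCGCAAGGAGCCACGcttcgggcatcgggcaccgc
Hsp90b1 (chr10:86705513-86705571, minus strand, capitals at -107 to -89): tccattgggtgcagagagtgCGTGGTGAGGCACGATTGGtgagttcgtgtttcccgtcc
Dnajc3 (chr14:118937807-118937865, plus strand, capitals at -105 to -87): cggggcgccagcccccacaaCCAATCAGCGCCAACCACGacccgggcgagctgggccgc
Pdia6 (chr12:17266471-17266529, plus strand, capitals at -98 to -80): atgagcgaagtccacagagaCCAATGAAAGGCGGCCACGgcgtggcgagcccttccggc
Calr (chr8:84847055-84847113, minus strand, capitals at -162 to -144): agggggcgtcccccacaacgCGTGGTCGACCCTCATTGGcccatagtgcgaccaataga
Canx (chr11:50325780-50325838, minus strand, capitals at -145 to -127): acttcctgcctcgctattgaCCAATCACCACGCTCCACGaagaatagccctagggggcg
Creld2 (chr15:88819500-88819558, plus strand, capitals at -126 to -108): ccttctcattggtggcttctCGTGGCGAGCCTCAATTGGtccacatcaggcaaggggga

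The shorter ERSE-II (ATTGG, any 1 base, CCACG) was present in 0.0365% of promoters. It was found in 2 of the 30 members, Dnajb11 and Herpud1, with the match in capitals.
Dnajb11 (chr16:22857843-22857871, plus strand, capitals at 7 to 17): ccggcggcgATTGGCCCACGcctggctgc
Herpud1 (chr8:94386357-94386407, plus strand, capitals at -52 to -42): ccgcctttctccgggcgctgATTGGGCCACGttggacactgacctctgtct

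For the integrated stress response, the element read by ATF4 and C/EBP factors, written here as CARE (TGATGNAA), was present in 3.97% of promoters. Among 6 members of that role it was found in 3, and it was also found in Herpud1. The 3 matches are shown in capitals.
Chac1 (chr2:119351029-119351076, plus strand, capitals at -193 to -186): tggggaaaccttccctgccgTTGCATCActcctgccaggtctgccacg
Asns (chr6:7693214-7693243, minus strand, capitals at -23 to -16): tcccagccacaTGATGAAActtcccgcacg
Trib3 (chr2:152344039-152344066, minus strand, capitals at 14 to 21): agcagcagattagctcaggtTTACATCA

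A heat shock element (GAA, any 2 bases, TTC, any 2 bases, GAA) was present in 0.603% of promoters and in 3 of the 6 heat shock members with a promoter, Hspe1, Hspd1 and Hsph1. Hspe1 and Hspd1 are divergent neighbours and share the same bases, which hold 2 overlapping matches joined in capitals. Hsph1 has 2 starts in the table, and its match is placed from one of them.
Hspe1 (chr1:55088053-55088082, plus strand, capitals at -89 to -72): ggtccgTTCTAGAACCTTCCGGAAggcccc
Hsph1 (chr5:149636280-149636308, minus strand, capitals at 15 to 27): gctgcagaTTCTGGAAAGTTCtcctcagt

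The UPRE (TGACGTGG) was found in 0.676% of promoters and in 0 of the 30 members. A match of letters is a description of the sequence. Only exact matches were counted, so variant forms of an element are missed, and these windows do not cover distant elements. A member without a match may therefore still carry the element.

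Library totals were 34435835 to 56897822 expected counts in the controls and 29806083 to 34702571 in the labelled group (exact two-sided permutation p = 0.0159). Levels are given as CPM, the count scaled to a common library size with trimmed mean of M-values factors. Tnfsf10 averaged 334 ± 35.7 CPM in the controls and 179 ± 89.7 CPM in the labelled group (SD, 5 libraries each). Its log2 fold change was -0.90, with an edgeR adjusted p of 0.425 over all genes tested. An exact two-sided permutation test of its CPM alone gave p = 0.0238. EC-TRAIL KO replicate 2, so labelled, was at 318 CPM and lay within the control range of 298 to 374 CPM. Its Tnfsf10 level thus does not bear out its label, and the reason was not tested. Without that library the log2 fold change of Tnfsf10 was -1.21 (edgeR adjusted p = 0.0345). The 12 endothelial markers summed to 20321 to 23764 CPM in controls and 20334 to 22974 CPM in the labelled group, led by Ptprb and Cdh5. Genes of other cells were present too. The 12 alveolar epithelial markers, led by Sftpc and Sftpa1, summed to 8419 to 12627 CPM in controls and 6992 to 10171 CPM in the labelled group, and the 10 fibroblast markers to 1275 to 1558 and 922 to 1569 CPM. A list of 10 proliferation genes was chosen with earlier results of these data known. Of these, 8 were higher in the labelled group at an edgeR adjusted p below 0.05, against 0.439% of all genes tested. Sums over the 10 genes were 54.9 to 114 CPM in controls against 176 to 912 CPM in the labelled group, highest in EC-TRAIL KO replicate 2.

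The comparison of the 2 groups asked whether deletion of endothelial TRAIL was accompanied by a change in these stress-response genes. No member passed the test in either direction: 0 of 37 were higher and 0 of 37 lower at an adjusted p below 0.05, by edgeR's quasi-likelihood test with Benjamini-Hochberg adjustment over 17997 genes. Over all genes tested, 0.439% passed, all of them higher, and 0.0% were lower. At an unadjusted edgeR p below 0.05, Dnajb9 and Chac1 were lower and 0 members were higher, against 5.13% of all genes in either direction and 1.32% lower. DESeq2 called 0 of 37, against 1.17% of all genes, and limma-voom with quality weights called 0 of 37, against 0.0111%. In 0 of 37 members were the groups free of overlap, while every labelled library lay above every control in 1.38% of all genes and below in 0.261%.

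The sizes of the differences were small. The log2 fold change, labelled group over control, ranged from -0.35 to 0.17 with a median of -0.0039, and over all genes tested the median was -0.0085. It was below 0 in 20 of 37 members, against 52.6% of all genes tested, and above 0 in 17. That count rests on single libraries: it was 29 below 0 without control 1, 28 without the labelled replicate 4 and 13 without the labelled replicate 2. The 95% interval of the fold change lay within 1.5-fold either way for 33 of the 37 members, against 64.9% of all genes tested, and within 1.25-fold for 19, against 36.3%. The 4 members whose intervals reached beyond 1.5-fold were Dnajb9, Chac1, Hspa1a and Hspa1b. Because many genes tested have far lower counts than these members, the 2 shares are not like for like. In bulk RNA, fewer cells of a type and less RNA per cell cannot be told apart.

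**Figure D1:**
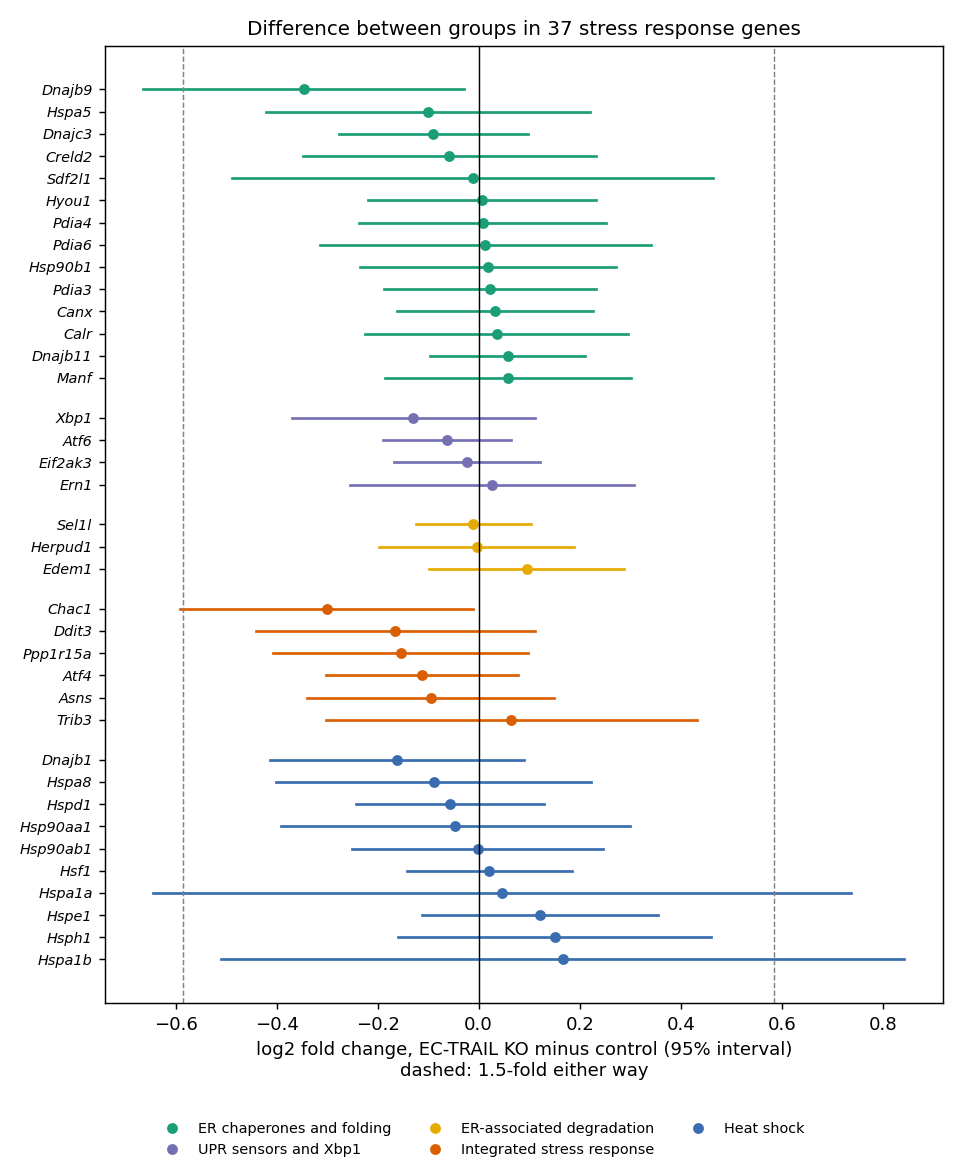
Log2 fold change of each of the 37 genes, labelled EC-TRAIL KO over control, on the x axis, with genes on the y axis grouped and coloured by role. Bars are 95% intervals from the edgeR fit to 5 libraries per group, and dashed lines mark 1.5-fold. All points lie between -0.35 (Dnajb9) and 0.17 (Hspa1b), and 33 of 37 bars stay inside the dashed lines.

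The ER chaperones had nearly the same mean level in both groups and varied from library to library. None of the 14 passed the test, 9 were above 0 and 5 below, and the median log2 fold change was 0.011. Without control 1, 13 of the 14 were below 0 and the median was -0.079, and without the labelled replicate 4, 12 were below 0 with a median of -0.030. Without the labelled replicate 3, 9 were below 0. Hspa5, at chr2:34771970-34777547, encodes BiP, the Hsp70 of the ER. Hspa5 measured 479, 581, 735, 681 and 621 CPM in control replicates 1 to 5 and 524, 409.5, 638, 704 and 612 CPM in the labelled replicates 1 to 5. The lowest value was in the labelled replicate 2 and the highest in control 3, and the groups overlapped over most of their range. The means were 619 ± 97.8 and 578 ± 114 CPM, a log2 fold change of -0.10 with a 95% interval of -0.42 to 0.22.

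Hsp90b1 encodes GRP94, the Hsp90 of the ER. Hsp90b1 measured 401, 538, 603, 574 and 622 CPM in the controls and 497, 511, 602, 622 and 541 CPM in the labelled libraries, with control 1 lowest. Pdia6, a protein disulfide isomerase, measured 87.3, 146, 154, 149.7 and 151 CPM in the controls and 121, 118, 158, 162 and 135 CPM in the labelled libraries. Control 1 again stood below the other 9 libraries, and the means of Pdia6 were close at 138 ± 28.2 and 139 ± 20.7 CPM (log2 fold change 0.014, 95% interval -0.31 to 0.34). Calr and Canx encode the lectin chaperones calreticulin and calnexin. Calr measured 361, 495, 541, 545 and 534 CPM in controls and 487, 424, 524, 584 and 519 CPM in the labelled libraries, with the same low control 1. Pdia3, Pdia4, Hyou1, Dnajb11, Dnajc3, Sdf2l1, Canx, Creld2 and Manf, which are folding enzymes, cochaperones or secreted ER stress proteins, had log2 fold changes of -0.090 (Dnajc3) to 0.059 (Manf).

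Dnajb9 had the largest shift of the 37. It encodes ERdj4, an ER cochaperone of BiP and a known target of spliced XBP1, at chr12:44205559-44210326. Dnajb9 measured 84.6, 79.6, 111, 89.7 and 120.3 CPM in the controls and 69.9, 55.8, 81.2, 80.2 and 94.1 CPM in the labelled libraries. All 5 labelled libraries lay below the control mean and 2 lay below every control, while the other 3 fell within the control range. The means were 97.0 ± 17.6 and 76.3 ± 14.3 CPM, a log2 fold change of -0.35 (SE 0.146, 95% interval -0.66 to -0.029), with an unadjusted edgeR p of 0.0351 and an adjusted p of 0.887. The other 13 ER chaperones had log2 fold changes of -0.10 to 0.059, and no test of Dnajb9 against them was made.

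**Figure D2:**
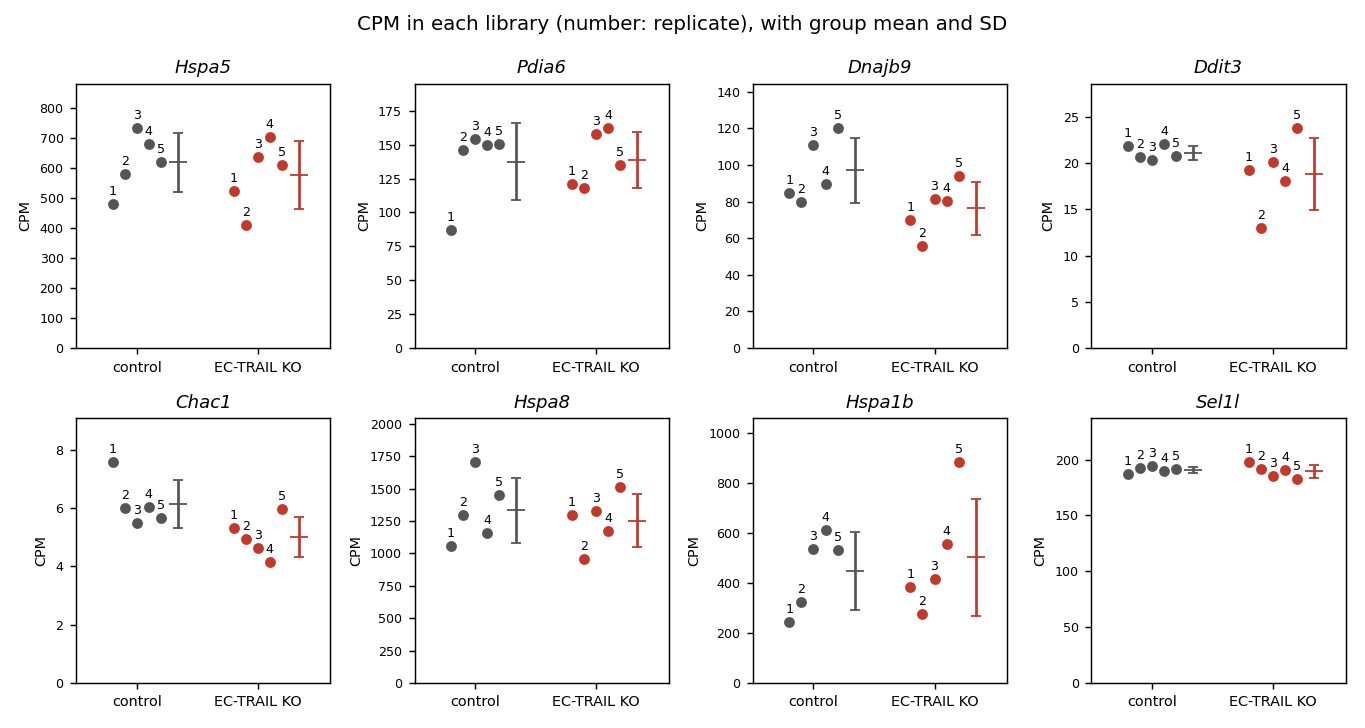
CPM of 8 genes in each library (y axis from 0), with points numbered by replicate, controls in grey and libraries labelled EC-TRAIL KO in red, and horizontal lines with bars for the mean and SD of 5 libraries. The groups overlap in all 8 genes; control 1 lies low in Pdia6, EC-TRAIL KO replicate 2 is lowest in Hspa5, Dnajb9 and Ddit3, and Sel1l is nearly level across the 10 libraries.

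The sensors and Xbp1 had similar means in both groups. None of the 4 passed the test, and all 4 intervals lay within 1.5-fold. Eif2ak3, which encodes PERK, measured 49.9, 49.6, 50.9, 51.6 and 51.8 CPM in the controls, a narrow range, and 50.9, 46.5, 47.8, 47.5 and 57.1 CPM in the labelled libraries. Its means were 50.8 ± 0.988 and 49.96 ± 4.32 CPM, and its log2 fold change was -0.023 with a 95% interval of -0.17 to 0.12. Atf6 measured 108, 102, 115, 102 and 115 CPM in the controls and 103, 101, 105, 102 and 107 CPM in the labelled libraries, a log2 fold change of -0.063 with a 95% interval of -0.19 to 0.065. The spans of both genes overlapped between groups. Ern1, which encodes IRE1, measured 74.7, 62.5, 64.9, 48.8 and 69.2 CPM in the controls and 73.4, 64.0, 70.4, 48.0 and 70.3 CPM in the labelled libraries. Replicate 4 of each group was the lowest of its group for Ern1.

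Xbp1 encodes the transcription factor whose mRNA IRE1 splices. Xbp1 measured 135, 166, 172, 143 and 144 CPM in the controls and 163, 109, 155, 131 and 136 CPM in the labelled libraries, with the labelled replicate 2 lowest. The means were 152 ± 16.3 and 139 ± 21.4 CPM, a log2 fold change of -0.13 with a 95% interval of -0.37 to 0.11. Gene-level counts do not separate spliced from unspliced Xbp1, and they do not show phosphorylation of PERK or cleavage of ATF6. The 3 degradation genes likewise did not pass. Sel1l encodes the adaptor of the HRD1 ubiquitin ligase, at chr12:91806043-91849157. Sel1l measured 187, 193, 194, 189.5 and 191 CPM in the controls and 197, 192, 186, 191 and 183 CPM in the labelled libraries, and its log2 fold change was -0.010 with a 95% interval of -0.12 to 0.10. This was the narrowest spread of any member. Herpud1, an ER membrane protein of the same pathway, had a log2 fold change of -0.0039 (95% interval -0.20 to 0.19). Edem1, a mannosidase-like factor that directs misfolded glycoproteins to degradation, had 0.10 (95% interval -0.10 to 0.29).

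In the integrated stress response, 5 of 6 members had log2 fold changes below 0, none passed the test, and the median was -0.13. The summed level of the 6 genes was 1053 to 1302 CPM in the controls and 805 to 1127 CPM in the labelled libraries, lowest in replicate 2. Without that library the median log2 fold change was -0.062. Atf4, the central transcription factor, measured 407, 363, 443, 385 and 371 CPM in the controls and 352, 303, 387, 386.3 and 393 CPM in the labelled libraries. All 5 labelled libraries lay below the control mean of 394 ± 32.2 CPM, and the log2 fold change was -0.11 with a 95% interval of -0.30 to 0.077. Because ATF4 is controlled largely by translation, its mRNA level is only a partial readout of the pathway.

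Ddit3 encodes CHOP, a factor linked to cell death under prolonged stress, at chr10:127290774-127296288. Ddit3 measured 21.8, 20.7, 20.4, 22.1 and 20.8 CPM in the controls and 19.2, 13.04, 20.1, 18.1 and 23.8 CPM in the labelled libraries. Of the labelled libraries, 4 lay below every control and replicate 5 lay above every control. The log2 fold change of Ddit3 was -0.17 with a 95% interval of -0.44 to 0.11. Chac1, at chr2:119351229-119354381, encodes a glutathione-degrading enzyme induced by ATF4. Chac1 measured 7.57, 6.02, 5.49, 6.03 and 5.68 CPM in the controls and 5.31, 4.94, 4.64, 4.15 and 5.97 CPM in the labelled libraries. Again 4 labelled libraries lay below every control, and replicate 5 fell within the control range. Its means were 6.16 ± 0.824 and 5.00 ± 0.69 CPM, a log2 fold change of -0.30 (SE 0.134, 95% interval -0.59 to -0.010), with an unadjusted edgeR p of 0.0436 and an adjusted p of 0.955.

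Ppp1r15a encodes GADD34, a subunit that directs a phosphatase to eIF2α and so helps restore translation. Ppp1r15a was the most abundant of the 6. Ppp1r15a measured 739, 644, 815, 656 and 634 CPM in the controls and 610.3, 465, 688, 696 and 673 CPM in the labelled libraries, and its log2 fold change was -0.15 with a 95% interval of -0.41 to 0.10. Trib3, a pseudokinase that restrains the pathway, had 0.065 (5.16 ± 1.35 against 5.40 ± 0.629 CPM), and Asns, asparagine synthetase, had -0.095 (14.7 ± 2.20 against 13.7 ± 1.39 CPM). Immediate early genes, which respond rapidly to many stimuli, had a median on the same side. The sum of 24 such genes was 16181 to 20698 CPM in the controls and 13971 to 18710 CPM in the labelled libraries, lowest in replicate 2. Their median log2 fold change was -0.15, and 0 of 24 passed the edgeR test, nor did any at an unadjusted p below 0.05. Their part in the values of Atf4 or Ppp1r15a was not tested.

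A wider list of 33 further genes of the integrated stress response, 31 of them tested, had more genes above 0 (23) than below (8). None passed the edgeR test, but 6 were higher at an unadjusted p below 0.05, against 3.81% of all genes, and the list's median log2 fold change was 0.060. The 2 with the smallest p were Mthfd2, a mitochondrial folate enzyme, and Sesn2, a sensor protein of amino acid and oxidative stress. Mthfd2 measured 1.31, 1.95, 1.62, 2.28 and 2.40 CPM in the controls and 2.19, 6.07, 3.05, 3.73 and 2.46 CPM in the labelled libraries, a log2 fold change of 0.87 (edgeR adjusted p = 0.491). It was highest in the labelled replicates 2 and 4, the libraries with the highest sums of proliferation genes (912 and 491 CPM). Sesn2 measured 14.996, 15.8, 21.9, 20.9 and 19.1 CPM in the controls and 20.6, 22.1, 23.0, 28.3 and 28.3 CPM in the labelled libraries, and 4 of the 5 labelled libraries lay above every control (log2 fold change 0.40, edgeR adjusted p = 0.508). Unlike Mthfd2, Sesn2 was highest in the labelled replicates 4 and 5, and the proliferation sum of replicate 5 was 278 CPM.

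The other 4, named after their values were seen, were Psat1, Phgdh, Slc7a1 and Gdf15. Psat1 and Phgdh are enzymes of serine synthesis, Slc7a1 is a cationic amino acid transporter and Gdf15 is a secreted stress cytokine. Psat1 measured 3.90, 5.62, 4.34, 5.96 and 4.94 CPM in the controls and 5.31, 12.8, 6.80, 10.3 and 5.87 CPM in the labelled libraries. Gdf15 measured 3.29, 3.13, 3.59, 11.8 and 3.37 CPM in the controls and 7.26, 11.1, 6.74, 22.3 and 6.27 CPM in the labelled libraries. Psat1 was highest in the labelled replicates 2 and 4. Gdf15 was highest in the labelled replicate 4, followed by control 4 and the labelled replicate 2. Log2 fold changes were 0.73 for Psat1, 0.86 for Phgdh, 0.42 for Slc7a1 and 1.09 for Gdf15. The part of proliferation in these values was not tested.

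The 10 heat shock members held the most abundant and the most variable genes of the set. None passed, 5 were above 0 and 5 below, and the median log2 fold change was 0.0097. Leaving out 1 library moved the number above 0 between 3 (without the labelled replicate 5) and 8 (without control 3). Hspa8 encodes the constitutive Hsp70, HSC70. Hspa8 measured 1061, 1294, 1703, 1161 and 1451 CPM in the controls and 1294, 961, 1325, 1175 and 1515 CPM in the labelled libraries, a log2 fold change of -0.089 with a 95% interval of -0.40 to 0.22. Hsp90ab1, the constitutive cytosolic Hsp90, averaged 993 ± 154 and 992 ± 109 CPM, and its log2 fold change was -0.0019 with a 95% interval of -0.25 to 0.25. Hsf1, the master regulator, measured 54.9, 57.1, 54.2, 53.8 and 51.3 CPM in the controls and 64.4, 48.4, 54.9, 54.1 and 53.7 CPM in the labelled libraries (log2 fold change 0.021).

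Hspa1a and Hspa1b encode the inducible Hsp70 and lie close together on chromosome 17, at chr17:34969190-34972156 and chr17:34956436-34959238. Their coding sequences were 99.4% identical, with 8 mismatches, so the split of reads between them is uncertain. Hspa1b measured 242, 323, 534, 612 and 531 CPM in the controls and 384, 276, 416, 556 and 882 CPM in the labelled libraries. The highest library was the labelled replicate 5 and the lowest control 1, a range of 3.65-fold. Hspa1a put the libraries of each group in the same order, with 265, 294, 526, 603 and 501 CPM in the controls and 329, 225, 383, 539.9 and 784 CPM in the labelled libraries. Their sum averaged 886 ± 307 CPM in the controls and 955 ± 451 CPM in the labelled group (SD, 5 libraries each), and Hspa1a made up 49.6% ± 1.73 and 47.0% ± 1.69 of it. Log2 fold changes were 0.047 (95% interval -0.64 to 0.74) for Hspa1a and 0.17 (95% interval -0.51 to 0.84) for Hspa1b. At this spread neither interval excludes a rise of 1.5-fold.

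Among the other HSF1 targets, Hsp90aa1, the inducible cytosolic Hsp90, had a log2 fold change of -0.046. Dnajb1, the Hsp40 partner of Hsp70, had -0.16 (115 ± 14.96 against 103 ± 16.0 CPM). Hsph1, a nucleotide exchange factor of the Hsp110 family, had 0.15. The mitochondrial chaperonin pair Hspd1 and Hspe1, which share a promoter region, had -0.057 and 0.12. Hspe1 lay above the control mean in all 5 labelled libraries, and its fold interval of 0.925 to 1.28 included 1. Processed pseudogenes of Hspe1 on 6 entries summed to 3.09% of its own level, so a share of its reads may be split.

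Many members were low in the same libraries, one from each group. Control 1 had the lowest of the 10 values in 16 of 37 members (43.2%), against 6.18% of all genes tested. The labelled replicate 2 was lowest in 15 of 37 (40.5%), against 16.2% of all genes. For the ER chaperones control 1 was lowest in 11 of 14, and it was the lowest control in 13 of 14. Within the labelled group, replicate 2 was lowest and replicate 4 highest in 10 of 14 each. The summed level of the 14 chaperones was 2318 CPM in control 1 and 2952 to 3348 CPM in the other controls. Control 1 was not low in markers of the sorted cells, with 22063 CPM summed over the endothelial list, and its alveolar epithelial sum of 8512 CPM was the second lowest of the controls. It was the lowest control in 7 of 8 pericyte and muscle markers and in 3 of 10 fibroblast markers. The pericyte and muscle sum was 487 CPM in control 1 and 537 to 654 CPM in the other controls. The labelled replicate 2 was the lowest of the 10 libraries in 12 of 12 alveolar epithelial markers, 5 of 8 pericyte and muscle markers and 5 of 10 fibroblast markers. Of the 12 endothelial markers it was lowest in 3 and highest in 3. It was the highest in 10 of 10 proliferation genes. The part of these differences in the low values of control 1 and the labelled replicate 2 was not tested. For heat shock genes control 1 and the labelled replicate 2 were each lowest in 5 of 10. For the integrated stress response control 1 was lowest in 0 of 6 members. On the wider list of that role it was lowest in 8 of 33 genes (24.2%).

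Low values in control 1 occurred among chaperones with and without an exact ERSE match in the promoter window. Of the 7 ER chaperones with the sequences shown above, control 1 was lowest of the 10 libraries in 5, and of the 5 without a match it was lowest in 4. The median log2 fold changes were 0.014 and 0.0080. These counts are too small to tell the 2 sets apart. A gene with a variant or more distant ERSE would also fall in the set without a match. Dnajb9 is one of the 5 without an ERSE match, and so is Dnajb11, which holds the ERSE-II shown above. Hyou1 and Manf, where control 1 was also lowest of the 10 libraries, had no promoter among those searched and are in neither set.

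**Figure D3:**
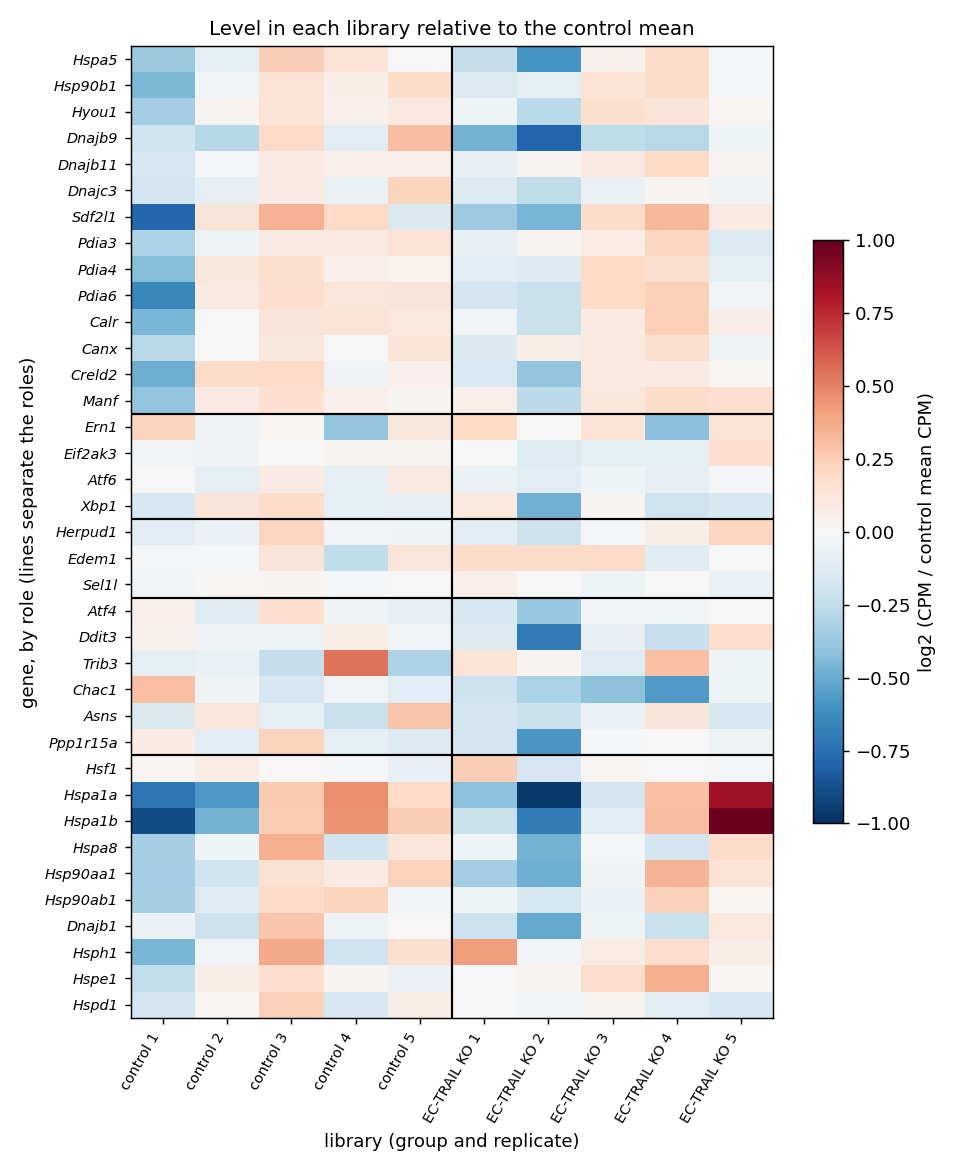
Level of each of the 37 genes (y axis, ordered by role) in each of the 10 libraries (x axis, controls left of the vertical line), coloured by log2 of CPM over the control mean, from -1 in blue to 1 in red. Control 1 is blue through the ER chaperones and most heat shock genes but not the integrated stress response, EC-TRAIL KO replicate 2 is blue in most roles, and Hspa1a and Hspa1b carry the strongest colours.

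The spread between libraries of one group differed widely among the members. The SD of log2 CPM, pooled over both groups, had a median of 0.202 over the 37 members. Among the 9528 genes tested with a mean of 10 CPM or more the median was 0.147. Of the 33 members at or above 10 CPM, 23 exceeded that value. Hspa1a had the largest SD at 0.617 and Hspa1b followed at 0.601, and 81 and 87 of the 9528 genes were more variable. At the other end, Sel1l had an SD of 0.034, and 4 of those genes varied less. Atf6 (0.066) and Eif2ak3 (0.087) were also steady, so 2 of the 3 sensors varied less than most of the chaperones. Within the controls, the ER chaperones had a median SD of 0.237, against 0.171 in the labelled group, and it was larger in the controls for 11 of 14. Control 1 was the lowest control in 13 of these 14 genes, so their SDs share that library and are not independent. Without control 1, the median log2 fold change of the ER chaperones went from 0.011 to -0.079 and that of the heat shock genes from 0.0097 to -0.082.

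**Figure D4:**
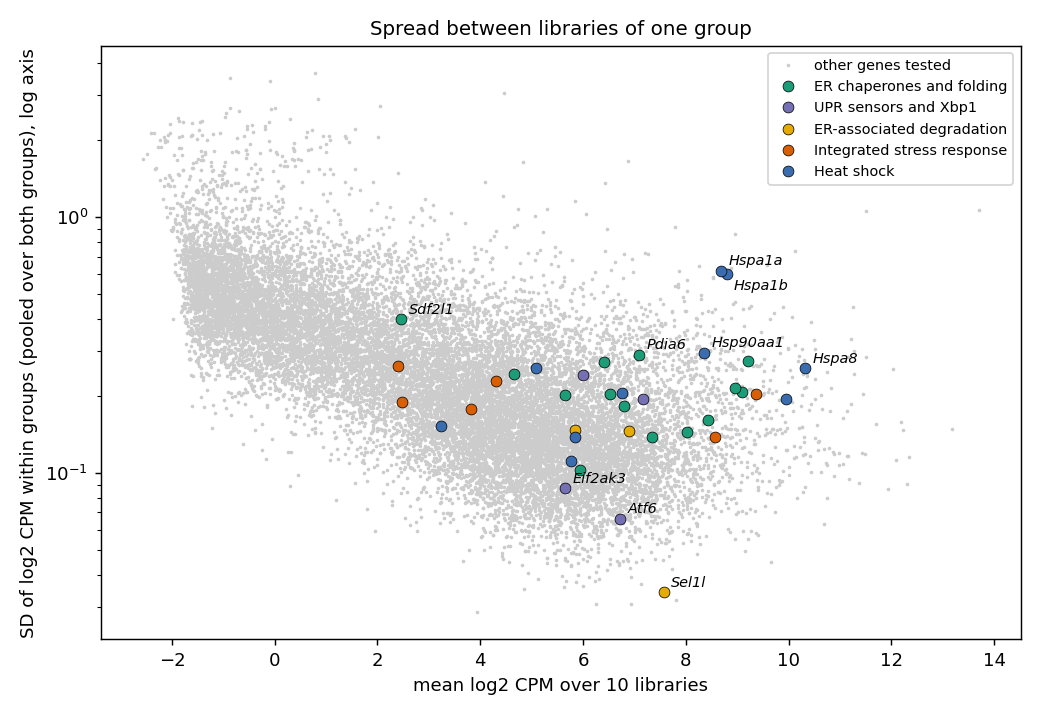
Spread of each gene between libraries of one group (SD of log2 CPM pooled over both groups, log y axis) against its mean log2 CPM over 10 libraries (x axis), with the 37 genes coloured by role over all other genes tested in grey. Hspa1a and Hspa1b stand near the top of the cloud at their level (0.617 and 0.601), and Sel1l lies at the bottom (0.034).

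Levels between genes were compared as CPM per kilobase of exon, where the length counts every base in any annotated exon of the gene. The order depends on that length, which can exceed the length of the main transcript. In the controls Hspa8 averaged 1334 CPM over 4301 bases and Hsp90ab1 993 CPM over 2999 bases. The highest in the controls were Hsp90ab1 at 331 ± 51.2 and Hspa8 at 310.1 ± 58.9 CPM per kilobase, which did not differ beyond their spread, then Ppp1r15a at 237 ± 26.5. Calr (172 ± 27.0), Atf4 (167 ± 13.7), Hspa1b (160 ± 56.2), Hspa1a (148 ± 50.5), Hspa5 (146 ± 23.1) and Hsp90b1 (136 ± 21.8) followed, and each neighbour in that order overlapped the next. The sensors were far lower, at 11.7 for Atf6, 8.42 for Eif2ak3 and 7.83 for Ern1. The lowest were Chac1 at 3.76 and Trib3 at 2.43 CPM per kilobase. In the labelled group the first 3 and the last 2 ranks held the same genes, with Hsp90ab1 at 331 ± 36.3 and Trib3 at 2.54. By this measure the integrated stress response held both the third most abundant member and the 2 least abundant.

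Further genes of these pathways, 148 on 6 lists, were examined beside the members. None of the 144 tested passed in either direction by edgeR's adjusted p, against 0.439% of all genes tested. At an unadjusted edgeR p below 0.05, 7 were higher and 1 lower, against 3.81% and 1.32% of all genes tested. Of those 7, 6 were the integrated stress genes described above. The median log2 fold change of the 144 was 0.0098. Of 34 further ER folding genes, the smallest p belonged to Sec61a1, the pore of the ER translocon (0.12, 117 ± 6.41 against 128 ± 8.28 CPM), and Prkcsh, a glucosidase subunit (0.11). Of 21 further degradation genes it belonged to Nploc4, a cofactor of the p97 segregase (0.15), and Ube2j2, a ubiquitin-conjugating enzyme (0.090). Of 15 tested regulators of the response it belonged to Ptpn1, an ER-bound phosphatase (0.11), and Crebrf, a regulatory factor (-0.15). Of 33 further heat shock genes it belonged to Hspb6, a small heat shock protein, and Hspa2, an Hsp70 relative. Hspb6 was at 5.29 ± 0.728 against 6.66 ± 1.03 CPM (0.33, edgeR adjusted p = 0.879) and Hspa2 at 36.4 ± 2.22 against 28.2 ± 7.39 CPM (-0.37, edgeR adjusted p = 0.882). For Hspa2, 4 of 5 labelled libraries lay below every control, and replicate 2 was lowest.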

How the data were processed

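RNA-seq was done on 10 libraries of sorted lung endothelial cells, from TRIzol RNA with a stranded poly-A kit per the labels' protocols. Per the submitters' processing notes, the authors used STAR 2.7.1a, RSEM 1.2.28 and build GRCm38. The deposited values are expected counts per gene without normalization, of which 81.2% were whole. The sources used here name no annotation release, strand setting or filter, so reads of overlapping or antisense genes may be shared. Symbols came from GENCODE M21, in which 55144 of 55385 identifiers matched.

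Expected counts were rounded and tested with edgeR 4.0.16 (R 4.3.3): trimmed mean of M-values scaling, a low-count filter (minimum count 10) that left 17997 genes, the quasi-likelihood F-test on group alone, and Benjamini-Hochberg adjustment at 0.05. Standard errors are the log2 fold change over the root of F, and intervals are 95%. The log2 CPM values used a prior count of 2. The fit was tested on simulated data. No 2 libraries agreed within sampling noise (lowest chi-square per degree of freedom 20.7). Alternatives were DESeq2 1.42.0, limma 3.58.1 (voom with quality weights), other scalings, no filter, a replicate block and each library left out. Members and lists were chosen with earlier results of these data known. Genes named were all members by role and, of each wider list, those passing and the 2 with the smallest p. Psat1, Phgdh, Slc7a1 and Gdf15 lie outside that rule and were named after their values were seen.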

Additional observations from a re-analysis of the deposited data

Results flagged for a closer look

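In 8 of 76 groups of 5 libraries (37 members and Tnfsf10 in each of 2 groups), 1 library lay far from the rest, with a gap to its nearest neighbour above 0.71 of the group's range. The cutoff is set so that about 5% of groups exceed it when values are independent and normally distributed. These groups share the same 10 libraries and are not independent, so their count cannot be tested against that 5%. All 8 were in the controls. Control 1 was far below the other controls in 5 ER chaperones: Hyou1 at 86.9 CPM (others 113 to 122), Pdia4 at 69.1 CPM (95.4 to 104), Pdia6 at 87.3 CPM (146 to 154), Calr at 361 CPM (495 to 545) and Manf at 37.5 CPM (50.3 to 55.3). Control 1 was also far above them in Chac1, at 7.57 CPM (5.49 to 6.03). Control 3 was high in Herpud1, at 138 CPM (111 to 117), and control 4 in Trib3, at 7.50 CPM (4.17 to 4.91). The 5 chaperone values come from the same library and are not independent.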

How the results depend on the processing

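Under 16 alternatives, 592 values of the 37 members were recomputed, and 1 passed the threshold. That was Dnajb9 with the replicate block (log2 fold change -0.35, edgeR adjusted p = 0.0447), where 1 member was called lower. Its other adjusted p values ran from 0.451 to 1.00. With the same block, 1 gene of the wider lists was called higher, Gdf15 (edgeR adjusted p = 0.0115), and 149 genes in all were called against 79. DESeq2 called 211 genes and limma-voom with quality weights 2, in both cases with 0 members. The labels do not say that equal replicate numbers share a mouse, litter or day. Deviations of same-numbered libraries correlated at 0.227, 0.0679, 0.21, 0.433 and 0.114, and 4 of 5 correlated best with their own number, a hint from the data and not the design. For Tnfsf10 the log2 fold change ran from -1.21 to -0.72 as single libraries were left out, and it passed without EC-TRAIL KO replicate 2.

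The sign turned in 62 of 592 values, in 23 members, and the largest of these had a log2 fold change of 0.17. Without the low-count filter Hyou1 was at -0.0067, Pdia4 at -0.0068 and Pdia6 at -0.0012. With limma-voom and quality weights Sdf2l1 was at 0.080, Herpud1 at 0.0087 and Hsp90ab1 at 0.022. With the replicate block Sdf2l1 was at 0.0026, Hspa1a at -0.010 and Hsp90ab1 at 0.0056, and with library size only Hsp90ab1 was at 0.0017. With single libraries left out, the log2 fold changes ran from -0.059 to 0.094 for Calr, from -0.031 to 0.072 for Canx, from -0.16 to 0.014 for Creld2, from -0.075 to 0.0018 for Eif2ak3, from -0.057 to 0.12 for Ern1, from -0.064 to 0.053 for Herpud1, from -0.041 to 0.064 for Hsf1, from -0.16 to 0.046 for Hsp90aa1, from -0.074 to 0.059 for Hsp90ab1, from -0.076 to 0.067 for Hsp90b1, from -0.25 to 0.22 for Hspa1a, from -0.14 to 0.32 for Hspa1b, from -0.18 to 0.00053 for Hspa5, from -0.17 to 0.012 for Hspa8, from -0.10 to 0.0060 for Hspd1, from -0.069 to 0.069 for Hyou1, from -0.026 to 0.13 for Manf, from -0.047 to 0.060 for Pdia3, from -0.082 to 0.047 for Pdia4, from -0.11 to 0.067 for Pdia6, from -0.16 to 0.086 for Sdf2l1, from -0.025 to 0.0029 for Sel1l and from -0.00071 to 0.24 for Trib3. The cause was not tested. Genes with few counts, such as Sdf2l1 with a lowest count of 123, have wide intervals, and RSEM's split of reads limits Hspa1a and Hspa1b.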

Other observations

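The mitochondrial stress genes, which handle unfolded proteins inside the organelle, had narrow intervals. Of 10 tested none passed the edgeR test, 0 had an unadjusted p below 0.05, and all 10 intervals lay within 1.25-fold. The smallest p belonged to Spg7, a protease of the inner membrane (38.0 ± 2.26 against 41.2 ± 1.12 CPM, log2 fold change 0.11), and Clpx, a subunit of the matrix protease (31.6 ± 1.73 against 29.7 ± 0.622 CPM, -0.089).

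Ern1 and Edem1 shared a low replicate 4 in both groups. Ern1 was at 48.8 and 48.0 CPM there, against 62.6 to 74.7 CPM in the other 8 libraries, and Edem1 was at 47.0 and 51.5 CPM, against 55.2 to 64.0 CPM. Both genes were picked after their values were seen.

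Plasma cells carry a very high load of ER chaperones, and their defining genes Jchain and Mzb1 averaged below 1 CPM over the 10 libraries. Of the 6 plasma cell markers, the summed level came mostly from Sdc1 and Prdm1, which other cell types also express.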
